A study of Mus musculus and Rattus norvegicus with 28 samples.

Results

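The 10 endothelial marker genes described here were followed through the perinatal mouse and rat heart cell preparations of this series: Pecam1, Cdh5, Kdr, Flt1, Tie1, Tek, Emcn, Egfl7, Eng and Adgrf5. The rule that picked them used gene names, as markers of endothelial cells, and they were chosen with earlier results of these data known. All 10 were found among the 55450 mouse genes in the files, and 9 were found among the 32623 rat genes, where Pecam1 was not matched by name. The level of a gene was its FPKM, in which fragments are scaled to transcript length and to library size, summed over its transcripts, so that genes can be compared with each other.

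Endothelial cells line blood vessels and the chambers of the heart, and in the myocardium they form a dense capillary bed around the cardiomyocytes. They hold to each other through VE-cadherin (Cdh5) and PECAM1, respond to vascular endothelial growth factor (VEGF) through the receptors encoded by Kdr and Flt1, and respond to angiopoietins through TIE2 (Tek) and its partner TIE1. Endoglin (Eng) is a coreceptor for ligands of the BMP9 and TGF-beta family. Eng and Pecam1 are also carried by other cells, such as macrophages, platelets, smooth muscle cells and fibroblasts.

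The study took ventricular cells enriched for cardiomyocytes from C57BL/6 mice at embryonic day 18.5 (E18.5) and at postnatal days 1, 3 and 7 (P1, P3 and P7), and from Sprague Dawley rats at P1. Ventricles were digested with enzymes, and a pre-plating step removed cells that attached early, so the preparations can hold other cells besides cardiomyocytes. Mouse RNA-seq and mouse ATAC-seq, which maps open chromatin, had 2 libraries per time point each. The rat cells were cultured and received either the histone deacetylase inhibitor trichostatin A (TSA, 100 nM) from 1 day after plating, or its vehicle DMSO, with 3 RNA-seq libraries each. Mouse cells were not treated and no transgene was involved. The study describes the libraries of a group as biological replicates. The labels do not say how many animals or preparations each library came from.

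The labelled cell type was cardiomyocyte, and its markers changed strongly over the series. The summed FPKM of 14 cardiomyocyte markers was 32057 to 41281 at E18.5, 15822 to 24838 at P1, 8569 to 10534 at P3 and 1197 to 2743 at P7, and no marker was at 0 in any mouse library. The summed FPKM of the 10 endothelial genes was 278 to 486 at E18.5, 408 to 453 at P1, 660 to 737 at P3 and 466 to 559 at P7. The 10 fibroblast markers rose from 445 to 459 at E18.5 to 2951 to 3685 at P7, and all 10 were called higher at P7 against E18.5. The 10 smooth muscle and pericyte markers summed to 431 to 560 at E18.5 and 1671 to 1879 at P7, with 5 called higher and 3 lower. The 10 macrophage markers moved from 47.6 to 50.0 at E18.5 to 112 to 133 at P7, with 2 of 9 tested called higher and 1 lower, and Lyz2 was the highest at P7. The 6 megakaryocyte and platelet markers moved from 12.4 to 15.4 to a range of 67.6 to 76.6, most of it Pf4, with 2 of 3 tested called higher. The 8 erythroid markers went from 29046 to 35395 at E18.5 to 8.19 to 41.0 at P1 and 11.0 to 12.0 at P7. These bulk values cannot tell fewer cells of a type from less RNA per cell. The part that these shifts in composition had in the results was not tested.

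The sequences at the starts of 4 of the genes are shown first. They are Kdr, the member that fell, Eng and Emcn, which rose, and Tie1, whose single peak region lay at its start. A link between these sequences and expression or open chromatin was not tested. Each is the 250 bases before the RefSeq start on GRCm38.p6, the patch level of mm10, written on the strand of the gene. They lie at chr5:75978456-75978705 (minus strand) for Kdr, chr2:32646345-32646594 (plus) for Eng, chr3:137340828-137341077 (plus) for Emcn and chr4:118489850-118490099 (minus) for Tie1. Capitals mark matches, on either strand, to 6 short motifs. AGGAAG and CGGAAG hold the core that ETS factors bind, and GATAAG is the letters bound by GATA factors. AACAGGAA is a FOX and ETS composite that can overlap the first of these. TATAAA is the TATA box, and TGACTCA is the letters bound by AP1.
Kdr promoter: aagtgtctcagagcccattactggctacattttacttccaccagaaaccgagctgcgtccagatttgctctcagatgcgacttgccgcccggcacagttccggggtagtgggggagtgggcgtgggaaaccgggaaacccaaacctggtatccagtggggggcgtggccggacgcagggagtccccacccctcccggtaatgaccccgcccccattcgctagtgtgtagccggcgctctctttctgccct
Eng promoter: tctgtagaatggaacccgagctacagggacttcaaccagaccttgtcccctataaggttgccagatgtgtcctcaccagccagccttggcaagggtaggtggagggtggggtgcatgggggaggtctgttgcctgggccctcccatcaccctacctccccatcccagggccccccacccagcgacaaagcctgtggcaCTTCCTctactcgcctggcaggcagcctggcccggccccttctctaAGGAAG
Emcn promoter: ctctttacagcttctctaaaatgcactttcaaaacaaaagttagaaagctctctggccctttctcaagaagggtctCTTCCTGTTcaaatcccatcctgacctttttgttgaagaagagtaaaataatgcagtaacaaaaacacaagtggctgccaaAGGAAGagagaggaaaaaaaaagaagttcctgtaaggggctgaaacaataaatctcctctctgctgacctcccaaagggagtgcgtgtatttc
Tie1 promoter: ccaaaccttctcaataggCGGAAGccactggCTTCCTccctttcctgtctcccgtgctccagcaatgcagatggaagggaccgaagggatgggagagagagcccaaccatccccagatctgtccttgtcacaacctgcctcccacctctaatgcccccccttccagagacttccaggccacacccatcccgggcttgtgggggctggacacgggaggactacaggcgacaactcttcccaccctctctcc

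The Kdr stretch held none of these motifs. Eng held AGGAAG 2 times, Emcn held it 2 times with 1 overlapping match to AACAGGAA, and Tie1 held AGGAAG and CGGAAG 1 time each. RefSeq promoters were on hand for 8 of the genes, 11 stretches in all, and 7 of the 11 held AGGAAG or CGGAAG, against 39.2% of all 32851 promoters of the same length. GATAAG was in none of the 11, against 6.55% of all promoters, and TATAAA was in the Flt1 stretch alone, against 12.4%. TGACTCA was in none of the 11, against 4.46%, and AACAGGAA was in 2 of the 11, against 2.25%. A match is a description of letters and not a site.

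The first question was how the 10 genes stood at each age. At E18.5 Cdh5 had the highest mean level (77.7 FPKM), followed by Eng (61.8), Pecam1 (59.9), Egfl7 (51.9), Emcn (33.8) and Tie1 (32.9), and the libraries of each overlapped those of the next as far as Tie1. Kdr (20.6), Adgrf5 (19.5), Flt1 (12.4) and Tek (11.9) were lower without overlap with Tie1, and neighbours among these 4 overlapped. By P3 the order was led by Eng (210), Egfl7 (138) and Emcn (102), and Kdr stood last at 5.12 FPKM. Kdr was also last at P1 and at P7, with no overlap with the gene above it in the order.

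**Figure D1:**
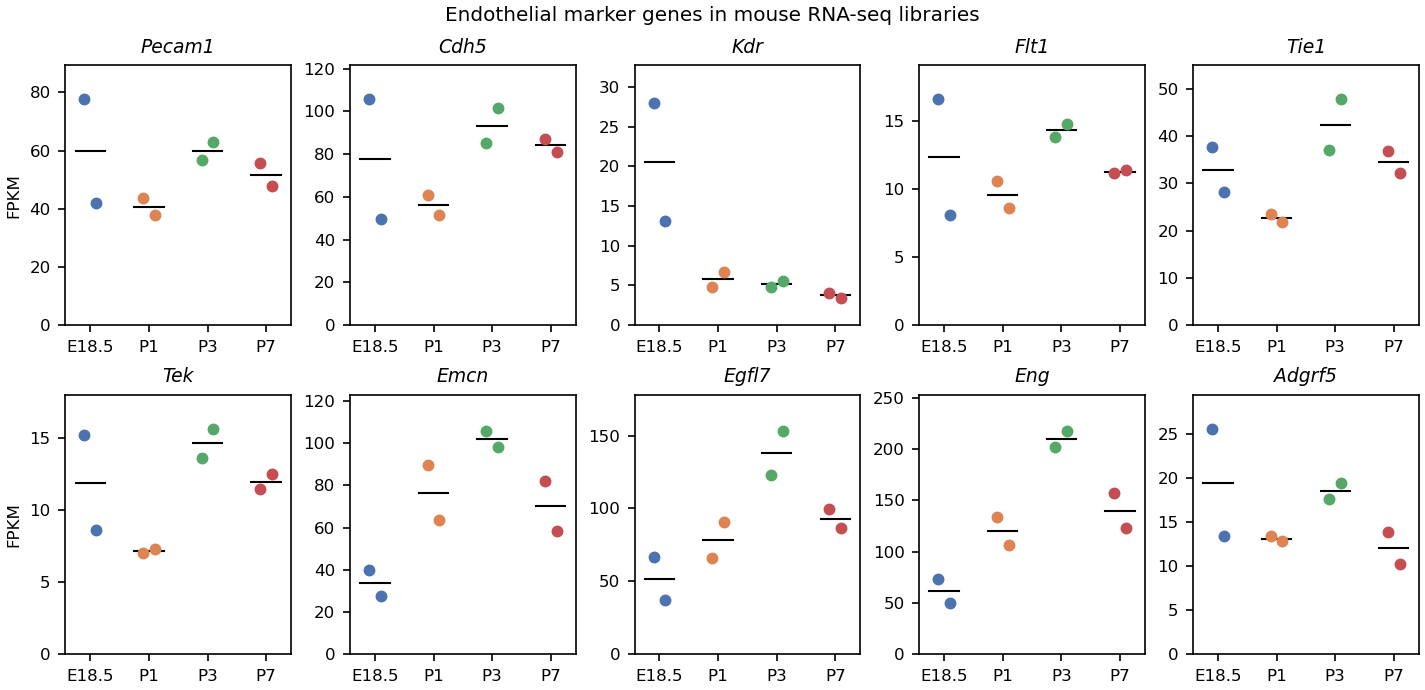
FPKM of each endothelial marker gene (vertical axis, starting at 0) in each mouse RNA-seq library, by time point; points are the 2 libraries and the line is their mean. Kdr lies lower in all 6 postnatal libraries than in either E18.5 library, and Emcn and Eng lie higher in all 6. The share of all tested genes that separate in this way was not measured. The 2 E18.5 libraries are far apart for most genes.

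The 2 E18.5 libraries differed from each other at these genes. Replicate 1 was above replicate 2 for all 10, by 1.33-fold (Tie1) to 2.14-fold (Kdr). Over all 13979 tested genes, on FPKM + 1, the median ratio was 1.03, and 27.3% of the genes had a ratio above 1.2. The members differed by at most 1.41-fold between the P1 libraries, 1.29-fold between those of P3 and 1.41-fold between those of P7. Results that rest on 1 of the E18.5 libraries are given with and without it.

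Kdr encodes VEGFR2, the main signalling receptor for VEGF-A. Its FPKM was 28.01 and 13.1 in the E18.5 libraries, 4.76 and 6.70 in those of P1, 4.74 and 5.49 in those of P3, and 4.08 and 3.43 in those of P7. All 6 postnatal libraries were below both E18.5 libraries. The share of all tested genes whose postnatal libraries lay on 1 side of both E18.5 libraries was not measured, here or for the genes below. The log2 fold change against E18.5, on the FPKM + 1 scale, was −1.60 at P1 (SE 0.32, limma adjusted p 0.00529), −1.73 at P3 (SE 0.32, adjusted p 0.00283) and −2.09 at P7 (SE 0.32, adjusted p 0.00082), and Kdr was called lower at all 3 ages. Calls required both an adjusted p below 0.05 and a log2 change of more than 1 in either direction. Kdr was the only member called lower, and the share of all tested genes called lower stood at 6.06% for P1, 8.88% for P3 and 12.3% for P7. Nearly all of the Kdr signal came from 1 transcript of 30 exons (99.0% or more of the gene in each library).

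Flt1 encodes VEGFR1, which binds VEGF-A tightly and signals weakly, and its short transcript encodes a secreted form that traps the ligand. The gene was at 16.7 and 8.12 FPKM at E18.5, 10.6 and 8.61 in the P1 pair, 13.8 and 14.8 in the P3 pair, and 11.2 and 11.4 at P7. The later libraries lay between the 2 E18.5 values, and Flt1 was not called at any age (log2 fold change −0.26, 0.27 and −0.04 at P1, P3 and P7). The ratio of Flt1 to Kdr within a library was 0.595 and 0.619 at E18.5, 2.23 and 1.28 in the P1 pair, 2.92 and 2.70 in the P3 pair, and 2.75 and 3.32 at P7. The 2 E18.5 libraries, which differed about equally at both genes, gave close ratios, and every later library was above them.

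The 2 Flt1 transcripts with signal were the full-length transcript of 30 exons and the short transcript of 13 exons, which ends in an intron of the longer one. The short transcript took 45.1% and 39.4% of the Flt1 FPKM at E18.5, 48.7% and 55.9% in the P1 pair, 53.0% and 51.4% in the P3 pair, and 57.1% and 58.3% at P7. Its share was higher in all 6 postnatal libraries than in either E18.5 library, with no test run on shares and no background from other transcripts measured. Transcript shares are estimates that the authors' program made by dividing reads over overlapping models.

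Tie1 and Tek encode the TIE receptors. Tie1 was at 37.6 and 28.2 FPKM at E18.5, 23.6 and 21.8 in the P1 pair, 37.0 and 47.8 in the P3 pair, and 36.9 and 32.2 at P7. Tek was at 15.2 and 8.64 at E18.5, 7.01 and 7.29 in the P1 pair, 13.6 and 15.7 in the P3 pair, and 11.5 and 12.5 at P7. Both had P1 as their lowest time point, with log2 fold changes of −0.51 (Tie1, adjusted p 0.0552) and −0.62 (Tek, adjusted p 0.0643) against E18.5 by limma, and neither was called at any age. Pecam1, Cdh5 and Flt1 also had their lowest mean at P1 (40.7, 56.2 and 9.61 FPKM).

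Eng, the coreceptor, was at 73.3 and 50.3 FPKM at E18.5, 133 and 107 in the P1 pair, 202 and 218 in the P3 pair, and 157 and 122.9 at P7. All postnatal libraries were above both E18.5 libraries, a separation whose share over all tested genes was not measured. It was called higher at P3 (log2 fold change 1.77, SE 0.21, limma adjusted p 0.000348) and at P7 (2.27-fold, adjusted p 0.00174), the P7 call being lost without E18.5 replicate 2 (log2 fold change 0.91), and at P1 it passed the adjusted p but not the fold limit (0.96, adjusted p 0.00754), and it was called there with TPM (1.21). The share of all tested genes called higher stood at 10.1% for P1, 13% for P3 and 15.4% for P7. An Eng transcript of 15 exons was at 2.26 and 3.00 FPKM at E18.5 and at 33.6 and 30.2 at P7, which was 21.4% and 24.6% of the gene at P7 and 3.08% and 5.97% at E18.5. Beside these levels, the fibroblast markers summed to 1161 to 1388 at P1, 1563 to 1569 at P3 and 2951 to 3685 at P7, so that their sum was highest at P7 whereas Eng was highest at P3. The macrophage markers summed to 117 to 156 at P1, 155 to 190 at P3 and 112 to 133 at P7, overlapping between P1 and P3, and the part of these cells in the Eng values was not tested.

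Emcn encodes endomucin, a mucin-like surface protein of capillary and venous endothelium. It was at 39.9 and 27.6 FPKM at E18.5, 89.5 and 63.7 in the P1 pair, 106 and 98.4 in the P3 pair, and 82.3 and 58.2 at P7. It was called higher at P1 (log2 fold change 1.16, SE 0.24, limma adjusted p 0.00636), P3 (1.59, adjusted p 0.00112) and P7 (1.04, adjusted p 0.00683). The P7 call stood close to the fold limit and was lost with median-of-ratios scaling (0.92), without the erythroid genes (0.95), without E18.5 replicate 2 (0.78) and without P7 replicate 1 (0.79), while the P1 call was lost without E18.5 replicate 2 (0.90) and without P1 replicate 1 (0.92).

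Egfl7 encodes a secreted protein of endothelial cells that binds the vessel matrix. It was at 66.5 and 37.2 FPKM at E18.5, 66.2 and 90.6 in the P1 pair, 123.1 and 153 in the P3 pair, and 99.5 and 86.5 at P7. Of the 6 postnatal libraries 5 were above both E18.5 libraries, P1 replicate 1 being the exception. It was called higher at P3 (log2 fold change 1.44, SE 0.27, limma adjusted p 0.00314), and at P7 its log2 fold change of 0.88 (adjusted p 0.0239) was under the fold limit, which it passed with TPM (1.15). A transcript that starts at base 26581056 of chromosome 2, upstream of the most abundant one, went from 1.41 and 1.93 FPKM at E18.5 to 18.3 and 15.1 at P7, or from 2.12% and 5.17% of the gene to 18.4% and 17.5%.

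Cdh5, the junction cadherin, was at 106 and 49.6 FPKM at E18.5, 60.8 and 51.6 in the P1 pair, 85.3 and 102 in the P3 pair, and 87.1 and 81.1 at P7. No age was called, and every postnatal library lay between the 2 E18.5 values. Pecam1, a second junction protein, spanned 37.9 to 77.8 FPKM over the 8 libraries, and Adgrf5, an adhesion G protein-coupled receptor of capillary endothelium, spanned 10.2 to 25.6. Neither was called at any age (adjusted p 0.0932 or more, limma).

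**Figure D2:**
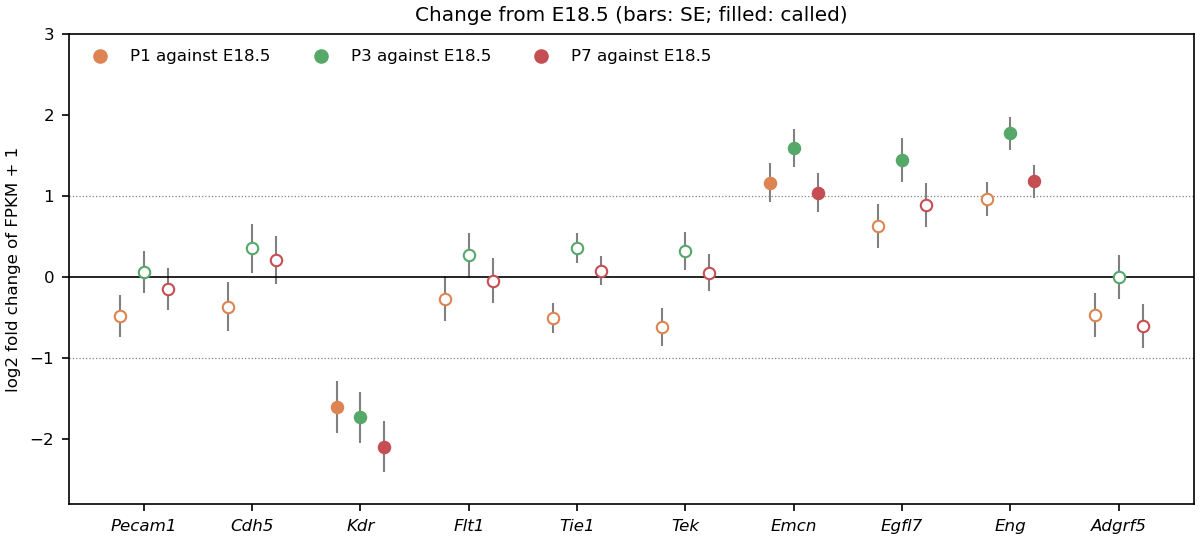
Log2 fold change of FPKM + 1 against E18.5 for each gene (horizontal axis) at P1, P3 and P7; bars are the SE of the limma fit, filled points were called and dotted lines mark the fold limit of 1. Kdr is lower at all 3 ages (−1.60, −1.73 and −2.09), Emcn, Egfl7 and Eng are higher, and the other 6 genes lie on both sides of 0.

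In all, 1 gene was called lower and 1 higher at P1 against E18.5 (Kdr and Emcn), 1 lower and 3 higher at P3 (Kdr, then Emcn, Egfl7 and Eng) and 1 lower and 2 higher at P7 (Kdr, then Emcn and Eng). Over all tested genes, 10.1%, 13% and 15.4% were called higher at P1, P3 and P7, and 6.06%, 8.88% and 12.3% lower. The counts of members at P1 and P7 were near these shares. The median log2 fold change of the 10 stood at −0.42 for P1, 0.34 for P3 and 0.07 for P7, beside 0.15, 0.16 and 0.14 over all tested genes. The 3 comparisons share the E18.5 libraries. Without E18.5 replicate 1 the number called was 4 at each age, with Eng and Egfl7 joining Kdr and Emcn, and without replicate 2 it was 1 at P1 (Kdr), 4 at P3 and 2 at P7 (Kdr and Adgrf5, which was lower by 1.04 on the log2 scale). Without P1 replicate 1 the count at P1 was 1 (Kdr), and without P1 replicate 2 it was 3, with Eng.

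Scaling moved all genes together. The median of all tested genes against E18.5 shifted by 0.18, 0.19 and 0.21 at P1, P3 and P7 with TPM, and by −0.12, −0.12 and −0.10 with median-of-ratios size factors. The share of calls that were higher went from 62.5%, 59.4% and 55.7% to 74.3%, 71.9% and 65.7% with TPM, and to 50.7% at P1 with median-of-ratios. The directions of Kdr, Emcn, Egfl7 and Eng did not turn under any scaling tried.

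A ratio to Cdh5 within each library shows unequal change among the genes and does not depend on library scaling. Kdr was at 0.265 and 0.264 of Cdh5 at E18.5, 0.0784 and 0.130 in the P1 pair, 0.0556 and 0.0541 in the P3 pair, and 0.0468 and 0.0423 at P7. Eng was at 0.693 and 1.01 of Cdh5 at E18.5 and between 1.51 and 2.37 in the later libraries, and Emcn was at 0.377 and 0.556 at E18.5 and between 0.718 and 1.47 later. Egfl7 was at 0.629 and 0.751 of Cdh5 at E18.5 and between 1.07 and 1.76 later. Adgrf5 was at 0.242 and 0.271 at E18.5 and at 0.159 and 0.126 at P7. Pecam1 was at 0.735 and 0.845 at E18.5 and at 0.638 and 0.589 at P7. Over the 8 libraries Flt1 ranged from 0.129 to 0.175 of Cdh5, Tek from 0.115 to 0.174, Tie1 from 0.356 to 0.569 and Pecam1 from 0.589 to 0.845.

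Among the postnatal ages no member was called. For P3 against P1, 5 of the 10 had an unadjusted p under 0.05 (limma) and all 10 but Kdr had a higher mean at P3. At the stricter limits for calls, 0.0143% of all tested genes were called in either direction. For P7 against P1 and for P7 against P3, 2 of the 10 had an unadjusted p under 0.05, and 8.91% and 3.55% of all tested genes were called. With limma-voom on estimated reads the counts called were also 0, and 5, 2 and 2 genes had an unadjusted p under 0.05. The share of all tested genes under this unadjusted limit was not measured, nor was the share with a higher mean at P3.

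The 10 genes did not follow a single pattern. As a description over the 8 mouse libraries, which share depth and composition, the Pearson r of log2(FPKM + 1) was between 0.58 and 0.94 among Pecam1, Cdh5, Flt1, Tie1, Tek and Adgrf5 (15 pairs, median 0.86), and between 0.84 and 0.97 among Emcn, Egfl7 and Eng (3 pairs). Kdr gave −0.72 to −0.54 with those 3 and 0.04 to 0.65 with the other 6. These sets were named after the values were seen. The 5 genes outside the set with the highest r with the mean profile of the 10 were Prkch (0.97), Gm17066 (0.93), Hspbap1 (0.93), Nostrin (0.93) and Tbk1 (0.93). Prkch was at 7.98 and 3.78 FPKM at E18.5 and between 4.71 and 7.72 later.

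Companion lists held other genes named as endothelial, and their values can include RNA of other cells. In the rat cultures Cdh5 was at 1.03 to 4.02 FPKM and Cldn5 at 0.163 to 1.89. There Unc5b was at 58.9 to 130, Fabp4 at 58.2 to 214 and Aqp1 at 83.7 to 201. The part of other cells in the list values was not tested. The clearest fall was in the capillary list, where 7 of 9 tested genes were called lower at P1, 6 at P3 and 7 at P7, with a median log2 fold change of −1.91, −1.43 and −1.55. Of all tested genes, 6.06%, 8.88% and 12.3% were called lower at these ages, and 10.1%, 13% and 15.4% higher. These shares apply to the lists below as well. Cd36, a fatty acid transporter, was at 122 and 88.9 FPKM at E18.5 and at 28.8 and 24.6 at P7 (log2 fold change −1.93, SE 0.17, limma adjusted p 5.01e-05). The cardiomyocyte marker sums also fell, from 32057 to 41281 at E18.5 to 1197 to 2743 at P7. The part of cardiomyocytes in the Cd36 values was not tested. Aplnr, the apelin receptor, fell by 1.87 on the log2 scale at P7, from 7.67 and 2.20 FPKM to 0.438 and 0.436, with a log2 fold change of −1.16 without E18.5 replicate 1 and −2.59 without replicate 2. Apln, the ligand of that receptor, rose by 2.54, from 11.8 and 3.51 FPKM to 40.3 and 45.9, with 3.29 without E18.5 replicate 1 and 1.79 without replicate 2. Gpihbp1, Fabp4, Rgcc, Ly6c1 and Aqp1 were the others called lower at P7, and Cav1 was not called.

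Of 25 other pan-endothelial genes, all tested, 2 were called higher and 8 lower at P1, 4 and 3 for P3, and 3 and 4 at P7, and the median was −0.12 at P7. The P7 counts of this list lay near the 15.4% higher and 12.3% lower of all tested genes, and without E18.5 replicate 2 the number called at P7 was 11. Cldn5, a tight junction claudin, was at 85.2 and 41.1 FPKM at E18.5, 1.41 and 1.204 at P1, and 7.10 and 8.14 at P7, with the P3 libraries between the last 2 ages, and fell by 2.81 at P7 (SE 0.31, limma adjusted p 0.000157). Its ratio to Cdh5 was 0.805 and 0.829 at E18.5, 0.0232 and 0.0233 at P1, and 0.0815 and 0.1004 at P7. Robo4, an endothelial guidance receptor, fell by 1.181 at P7, and this call was lost without E18.5 replicate 1 (−0.90), without P7 replicate 2 (−1.11) and with TPM. Rhoj, a small GTPase of endothelial cells, rose by 2.15 at P7 and Tm4sf1 by 1.84.

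The ligands and coreceptors of the member receptors moved in both directions. Of 14 tested, 5 were called higher and 3 lower at P7, with a median of 0.97. Vegfd rose from 0.613 and 0.767 FPKM at E18.5 to 21.3 and 25.9 at P7 (log2 fold change 3.86, SE 0.18, limma adjusted p 6.88e-06), and Acvrl1, the type I receptor that works with endoglin, rose from 5.77 and 3.58 to 24.3 and 26.7 (2.25). Vegfb fell from 91.7 and 139 to 29.9 and 22.5 (−2.08), and Bmp10, a ligand made by cardiomyocytes, fell from 5.53 and 7.26 to 0.368 and 0.186 (−2.53). Vegfa, the main ligand of Kdr and Flt1, was called lower at P3 (−1.22, limma adjusted p 0.0123) and was not called at P1 or P7.

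Among 15 tested endothelial transcription factors, 3 were called higher and 1 lower at P7 (median 0.05). Elk3 rose by 1.66 and Nr2f2, a factor of venous identity, by 1.16, the latter losing its call without E18.5 replicate 2 (0.85), and Klf4, a factor induced by flow, fell by 1.52. Of 12 arterial and Notch genes, 3 were called higher and 3 lower (median −0.03): Unc5b rose by 3.12 and Gja4 by 1.76, while the Notch targets Hey2 and Hey1 fell by 3.35 and 2.47. Hey2 is also expressed in cardiomyocytes. Of 10 venous, lymphatic and endocardial genes, 3 were called higher and 3 lower (median −0.49). Pdpn rose by 4.20 and Ackr1, the atypical chemokine receptor of venules, by 3.46, while the lymphatic genes Ccl21a and Prox1 were lower by log2 fold changes of −2.40 and −2.28. Ccl21a was listed at 0 in 5 of the 6 postnatal libraries, and it has near-identical copies in the genome, so its level is uncertain. Pdpn is carried by fibroblasts too, and Prox1 by cardiomyocytes.

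The 4 activation genes, adhesion molecules that bind leukocytes, divided evenly. Selp rose by 3.08 at P7, from 7.77 and 6.60 FPKM to 73.2 and 62.8, and Vcam1 rose by 2.003. Icam1 fell by 1.56, from 249 and 176 FPKM to 74.7 and 66.6, and Sele fell by 1.04, a call lost without E18.5 replicate 1 (−0.85), without P7 replicate 1 (−0.98) and with TPM (−0.81).

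**Figure D3:**
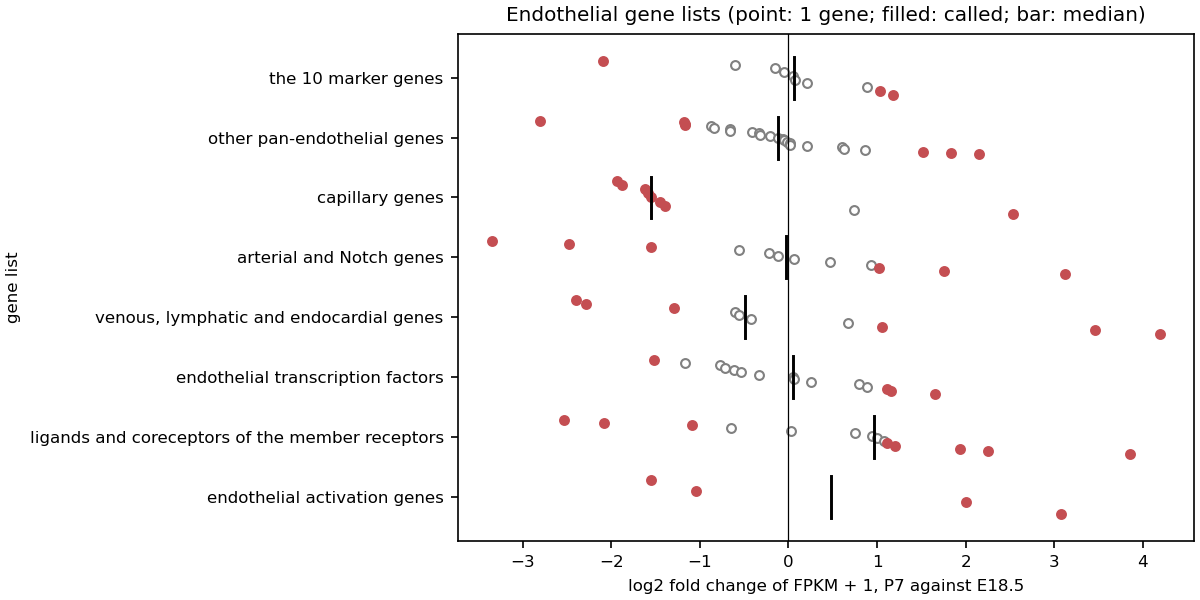
Log2 fold change of FPKM + 1 at P7 against E18.5 (horizontal axis) for the 10 marker genes and 7 companion lists; each point is 1 gene, filled points were called and black bars are list medians. The capillary genes have a median of −1.55, with 7 called lower and Apln (2.54) and Cav1 (0.74) above 0, while the medians of the marker genes (0.07) and the other pan-endothelial genes (−0.12) lie close to 0. Of all tested genes, 12.3% were called lower.

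The ATAC-seq peak lists gave a second readout. A gene had a promoter peak where a peak overlapped the 2.5 kb on either side of the start of one of its transcripts. The authors called peaks in each library on its own, and the lists ran from 13149 to 95257 peaks, with the fewest at E18.5 and the most at P3, so that presence of a peak moves with the length of the list.

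Kdr and Flt1, the VEGF receptor genes, were the only members with a promoter peak in both E18.5 libraries, 2 of 10 against 56.7% of all tested genes. No member had one in both P1 libraries, against 41.3%. At P3 9 of 10 had one in both libraries, near the 87.5% of all genes, and at P7 4 of 10 did (Kdr, Flt1, Egfl7 and Eng), against 83.2%. Emcn had no promoter peak in any library, although its RNA level was among the highest of the 10 after birth. At P7 the libraries differed, with 9 members in replicate 1 and 4 in replicate 2.

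**Figure D4:**
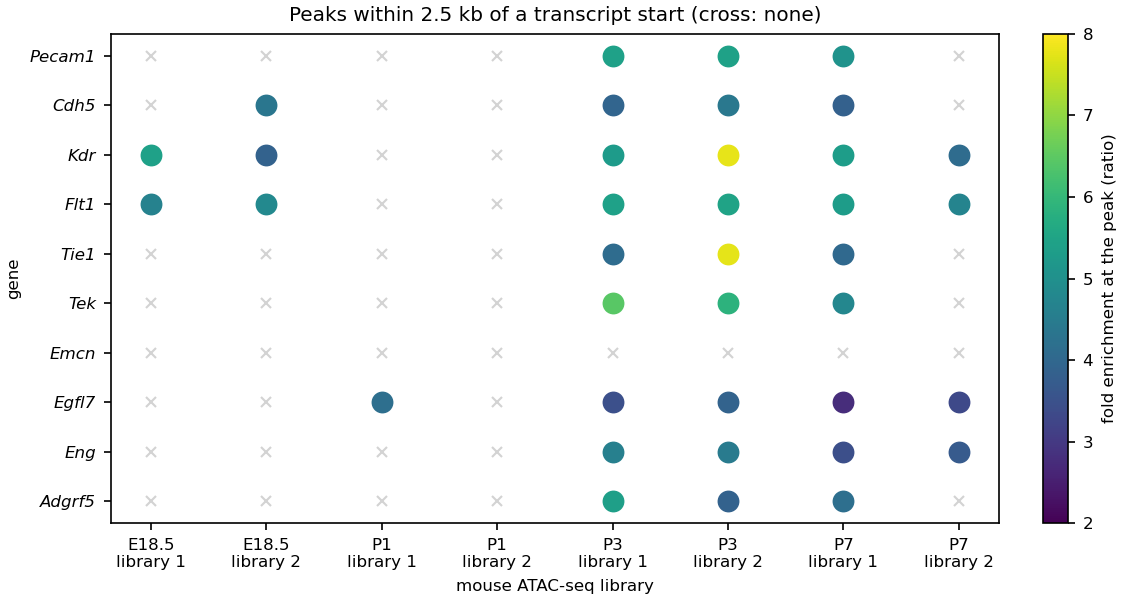
Promoter peaks of the 10 genes (vertical axis) in the 8 mouse ATAC-seq libraries (horizontal axis); a disc marks a peak within 2.5 kb of a transcript start, its colour the highest fold enrichment there, and a cross marks none. Peaks fill 9 of 10 genes in both P3 libraries, and the E18.5 and P1 libraries hold few.

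At the Kdr start a peak was present in all libraries except the P1 pair, with fold enrichments over background of 5.42 and 3.85 at E18.5, 5.28 and 7.77 in the P3 pair, and 5.31 and 4.09 at P7. The promoter of Kdr therefore held a peak at P3 and P7, where the mean Kdr RNA level was lowest. At Eng the start had peaks at P3 (4.58 and 4.48) and P7 (3.45 and 3.70) and none earlier. Tie1 had its peaks at P3 (4.10 and 7.76) and in P7 replicate 1 (4.02), and no other region within its span held a peak.

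There were 6 members that had a promoter peak in both P3 libraries and in neither E18.5 library (Pecam1, Tie1, Tek, Egfl7, Eng and Adgrf5), where 15.6% of all tested genes did. For P7 these were Egfl7 and Eng, against 12.1%, and for P1 there were none, against 1.37%. Over the 37 pairs of member and library with a peak, the fold enrichment ran from 2.77 to 7.77, and the median peak had a −log10 q above that of 35.6% of its list. This share differed between lists, with a median of 52.3% over the 9 members with a peak in P3 replicate 1, 42.8% over the 9 in P7 replicate 1 and 34.2% over the 9 in P3 replicate 2. With the 13149 best peaks of every list, 1 member kept a promoter peak in both E18.5 libraries (Flt1) and none did at P1, P3 or P7, while 54.1%, 31.5%, 37.3% and 45.2% of all tested genes did.

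Regions away from the starts were examined next. From 10 kb upstream to the end of each gene, the 8 libraries held 86 merged regions over the 10 genes, 64 of them outside the promoter windows, and 16 were found in 5 or more libraries. Of the 86, 36.05% were seen in a single library, beside 44.3% of all 113857 merged regions of the series. The 201 bases around the P3 replicate 1 summit of 4 shared regions follow, written on the plus strand of mm10, with capitals as above. They lie at chr4:94752610-94752810 (Tek, intron), chr8:104121862-104122062 (Cdh5, intron), chr2:32680109-32680309 (Eng, overlapping an exon) and chr17:43407631-43407831 (Adgrf5, intron).
Tek region: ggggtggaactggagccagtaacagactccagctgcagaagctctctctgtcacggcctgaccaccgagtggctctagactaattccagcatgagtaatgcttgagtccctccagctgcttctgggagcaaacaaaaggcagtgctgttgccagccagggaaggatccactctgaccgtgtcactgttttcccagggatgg
Cdh5 region: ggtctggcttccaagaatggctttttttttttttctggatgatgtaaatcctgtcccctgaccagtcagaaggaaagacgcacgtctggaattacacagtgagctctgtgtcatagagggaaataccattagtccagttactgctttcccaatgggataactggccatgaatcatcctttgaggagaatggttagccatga
Eng region: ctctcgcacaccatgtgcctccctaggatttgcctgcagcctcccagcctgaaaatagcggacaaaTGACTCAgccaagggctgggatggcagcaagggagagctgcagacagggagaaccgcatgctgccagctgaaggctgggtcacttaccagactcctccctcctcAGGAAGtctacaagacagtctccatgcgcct
Adgrf5 region: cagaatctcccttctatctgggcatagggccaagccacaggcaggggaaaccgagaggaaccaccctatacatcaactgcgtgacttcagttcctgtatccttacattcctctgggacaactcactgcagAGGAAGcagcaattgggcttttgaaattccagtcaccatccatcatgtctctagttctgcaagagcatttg

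The Tek region, 12.8 kb from the nearest start, held a peak in all 8 libraries, which 4.78% of the merged regions of the series did. Its fold enrichment was 5.68 and 4.95 at E18.5, 10.9 and 6.87 in the P1 pair, 16.4 and 14.4 in the P3 pair, and 10.3 and 7.10 at P7. The values at P3 were the highest, as was the mean Tek RNA level. At P1 the fold enrichments were above those of E18.5, whereas the mean Tek RNA level was lower (7.15 against 11.9 FPKM). The Cdh5, Eng and Adgrf5 regions printed above were also highest at P3, but not every shared region was. The other shared Tek region, at chr4:94745825-94746807, was highest in E18.5 replicate 1 (7.31). It was at 6.05 and 5.95 in the P3 pair and had no peak in either P1 library. The shared Egfl7 region was highest in E18.5 replicate 2 (5.84). A link between these peaks and RNA levels was not tested.

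The Cdh5 region held a peak at E18.5 (7.47 and 5.85), P3 (9.64 and 10.5) and P7 (7.36 and 5.13) and in neither P1 library. The Eng region held a peak in all 6 postnatal libraries and in neither E18.5 library. Its fold enrichments were 9.61 and 4.61 in the P1 pair, 10.4 and 10.6 in the P3 pair, and 7.58 and 7.95 at P7. The share of all merged regions with this pattern was not measured, and the E18.5 lists were the shortest (13149 and 14910 peaks). The other shared Eng region had a peak in E18.5 replicate 2 (5.70) and none in P1 replicate 2. The Eng RNA level was higher in all 6 postnatal RNA-seq libraries than in those of E18.5, and a link to the region was not tested. The Adgrf5 region reached 14.4 and 10.8 in the P3 pair, and was present in 1 P1 library and in neither E18.5 library.

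Letters shared by the windows were few. Of the 14 member windows, 7 held AGGAAG, against 29.1% of all 63606 windows, none held CGGAAG (4.45%) or GATAAG (8.01%) or AACAGGAA (2.90%), and 4 held TGACTCA, against 25.6%. TATAAA was in 1 of the 14, against 6.76%. The TGACTCA windows were 1 at Pecam1, 1 at Flt1 and 2 at Eng, including the region printed above.

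In the rat cultures the endothelial genes were low. Eng led at 59.3, 62.0 and 50.8 FPKM with DMSO and 51.9, 57.8 and 52.1 with TSA, and every other member was at 7.18 FPKM or less in every library. Adgrf5, at 0.0167 to 0.700 FPKM, did not reach the level for testing, so that 8 members were tested. Fibroblast markers, at a summed FPKM of 3595 to 6989, were far above the 68.5 to 86.9 of the endothelial genes. Replicate 3 of both treatments stood apart, with cardiomyocyte marker sums of 25974 (DMSO) and 37185 (TSA) against 13735 to 16329 in the other 4 libraries.

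TSA was compared with DMSO to ask which of these genes respond to inhibition of histone deacetylases. No tested member was called (0 of 8, where 2.13% of all tested genes were called in either direction), and limma-voom called 1. By limma, 5 of the 8 had an unadjusted p under 0.05. That limit is looser than the one for calls, and the share of all tested genes under it was not measured. The median log2 fold change of the 8 was 0.26, beside 0.03 over all tested genes. The exact permutation test over the 20 ways to assign the 6 libraries cannot go below p = 0.10 (two-sided).

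Egfl7 came closest. It was at 2.81, 2.90 and 2.72 FPKM with DMSO and 5.22, 7.18 and 7.12 with TSA, with no overlap (log2 fold change 0.97, SE 0.15, limma adjusted p 0.0224, exact permutation p 0.1). The fold limit kept it from being called, and it was called with a pseudocount of 0.1 (1.17), with TPM (1.00) and with limma-voom (1.21). The labels name no pairs of rat libraries, and the main fit and the permutation test used none. A replicate block that took equal replicate numbers as pairs gave the same 0.97 and no call. Leaving out any 1 library gave 0.90 to 1.10.

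Cdh5 was at 2.11, 1.63 and 1.03 FPKM with DMSO and 3.02, 4.02 and 3.48 with TSA (log2 fold change 0.82, limma adjusted p 0.0756), and Emcn was at 0.750, 1.07 and 0.331 with DMSO and 1.49, 2.59 and 1.41 with TSA (0.72, adjusted p 0.162). The TSA libraries of both were above all DMSO libraries. Kdr went the other way, from 5.18, 5.62 and 4.77 to 3.13, 2.96 and 4.68, below all DMSO libraries (−0.45, adjusted p 0.212). Tie1 (−0.63), Flt1 (0.33), Tek (0.19) and Eng (−0.09) had overlapping groups. The share of all rat genes whose groups did not overlap was not measured, so the members without overlap have no background beside them.

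**Figure D5:**
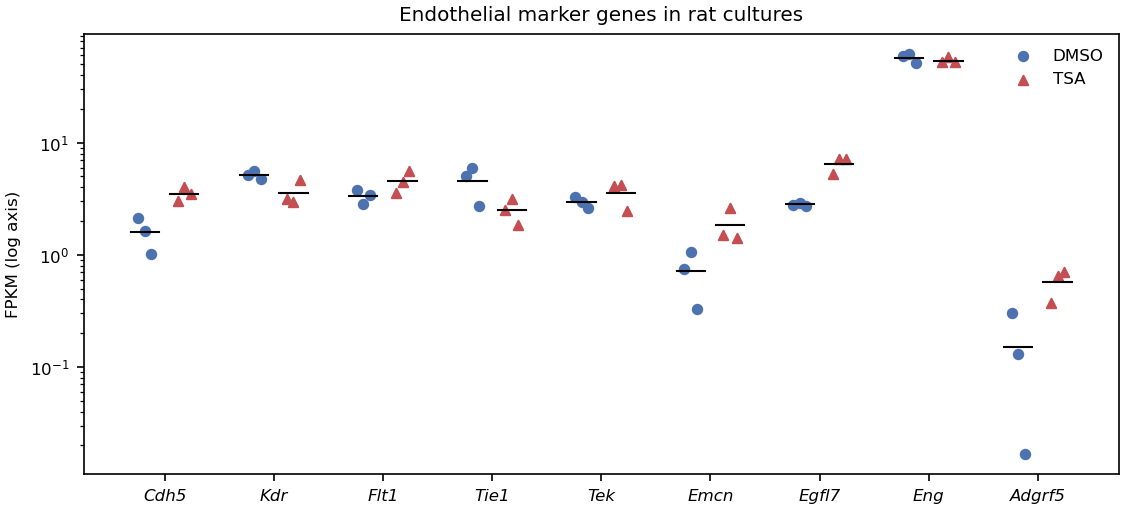
FPKM on a log axis of 9 endothelial marker genes in the rat cultures; circles are the 3 DMSO libraries, triangles the 3 TSA libraries and lines the means. Egfl7, Cdh5, Emcn and Adgrf5 have all TSA libraries above all DMSO libraries, and Kdr has them below. The share of all rat genes with no overlap was not measured, and the exact permutation test cannot go below p = 0.1.

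Among the companion genes 3 were called, all higher with TSA. Cldn5 went from 0.421, 0.441 and 0.163 FPKM to 1.69, 1.89 and 1.72 (log2 fold change 1.05, SE 0.16, limma adjusted p 0.0224). Ecscr, an endothelial surface protein, went from 3.13, 1.85 and 1.98 to 6.35, 5.34 and 5.43 (1.03, adjusted p 0.0323), and Sox18, an endothelial transcription factor, from 0.862, 0.996 and 0.249 to 2.81, 3.83 and 2.52 (1.27, adjusted p 0.0364). Leaving out 1 library ended the call in most cases: for Cldn5 with any library but TSA replicate 3 (lowest log2 fold change 0.95), for Ecscr with any library (0.93) and for Sox18 with any but DMSO replicate 3 (1.06). Ecscr was not called with median-of-ratios scaling (0.99), nor Sox18 with limma-voom or a pseudocount of 0.1 (2.12), and neither was called with no filter (1.03 and 1.27). Beside these values, the macrophage markers summed to 497 to 1049 with DMSO and 410 to 548 with TSA, with Lyz2 the highest, the platelet marker Pf4 was at 76.3 to 222 and 52.1 to 61.8, and the fibroblast sums were 6436 to 6989 and 3595 to 6005. The part of these cells in the TSA values was not tested.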

How the data were processed

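Processed files of 8 mouse RNA-seq, 8 mouse ATAC-seq and 6 rat RNA-seq libraries were used, and the HiChIP libraries were not analysed here. Per the file headers and the submitters' processing notes, the authors aligned RNA-seq reads with HISAT2 (2.1.0) to mm10 or rn6 and ran StringTie (1.3.5) on reference transcripts. The deposited values per transcript are FPKM and TPM, normalized by the authors for length and library, and read coverage, which is not normalized. ATAC-seq reads were aligned with Bowtie2, and MACS2 was run by the authors on each library separately. The deposited peak score is the authors' multiple of −log10 q, the fold enrichment is their ratio of signal to background at the summit, and the −log10 p and q values were deposited with them.

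Gene FPKM was the sum over transcripts, and depth, from the ratio of coverage to FPKM, was 29.3 to 37.5 M aligned reads in mouse and 28.2 to 38.5 M in rat. Genes with FPKM of at least 1 in 2 mouse or 3 rat libraries were tested on log2(FPKM + 1) with limma (3.58.1, R 4.3.3), with a trend and Benjamini-Hochberg adjustment, all mouse time points in 1 fit, after tests on simulated data. The fold change understates the change of low genes. The alternatives were a pseudocount of 0.1, other filters, TPM, median-of-ratios size factors, leaving out erythroid genes, limma-voom on reads estimated from coverage, a replicate block, fits on 2 time points, each library left out, and other peak lists and windows. The named genes were all members, up to 2 called genes in each direction per companion list (P7 compared with E18.5, and TSA), and the 5 most similar profiles. The members and lists were chosen with earlier results of these data known. The TGACTCA motif was added after sequences were seen. For pairing by replicate number, deviations of same-numbered libraries correlated at 0.224, 0.194 and 0.346 in rat, and at −0.0964 to 0.171 in mouse, where numbers were not taken as pairs. Peaks were matched to all transcript starts in the files, and sequences came from RefSeq on GRCm38.p6. The sequence of 1 shared region is not reported here. Peaks carry no read counts here, so the depth behind them is unknown. No batch is named in the labels.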

Additional observations from a re-analysis of the deposited data

How the results depend on the processing

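Counts of called members at P3 and P7 against E18.5 and in the 3 postnatal comparisons stayed within 1.5 times of those reported when the pseudocount, filter, unit, scaling, model, replicate block or set of libraries was changed, with 2 to 4 at P7 when 1 library was left out, whereas at P1 leaving out 1 library gave 1 to 4. Over all tested genes, calls higher at P1, P3 and P7 went from 1411, 1814 and 2155 to 2636, 3139 and 3477 with TPM. With TSA the count was 1 with a pseudocount of 0.1, with TPM and with limma-voom, in each case Egfl7. The replicate block changed no count of called members: 2, 4 and 3 at P1, P3 and P7 and 0 with TSA. In mouse the numbers mark no known pairs, and in rat the labels name none.

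Of 564 unchanged, 7 lost, 10 gained and 26 reversed log2 values of members, all reversals were of genes not called. Pecam1 turned at P3 with median-of-ratios (−0.09), without erythroid genes (−0.03) and with left-out libraries (−0.38 to 0.50), and at P7 with TPM (0.11) and left-out libraries (−0.58 to 0.29). Flt1 at P7 turned with TPM (0.21), Tie1 at P7 with median-of-ratios (−0.04) and without erythroid genes (−0.01), Tek at P7 likewise (−0.05 and −0.03), and Adgrf5 at P3 with a pseudocount of 0.1 (0.00057) and with TPM (0.24). With left-out libraries the ranges were −0.91 to 0.17, −0.18 to 0.89 and −0.33 to 0.75 for Cdh5 at P1, P3 and P7, −0.74 to 0.21, −0.21 to 0.75 and −0.52 to 0.43 for Flt1, −0.12 to 0.28 for Tie1 at P7, −0.05 to 0.70 and −0.32 to 0.43 for Tek at P3 and P7, and −0.44 to 0.44 for Adgrf5 at P3. The cause was not tested.

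With the same number of top peaks in every list, members with a promoter peak in both libraries numbered 1 at E18.5 and 0 at P3 and P7, and with the upper part of each list by score 0, 0 and 1. A window of 5 kb gave 1 at P1. With 1 library left out the numbers were 2 to 3 for E18.5, 0 to 1 for P1, 9 for P3 and 4 to 9 for P7. With 2 libraries per time point and peak lists of unequal length, these comparisons are limited.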
